A study of Homo sapiens with 16 samples.

Results

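The genes described here encode interferon beta, the interferon lambdas, and the receptor chains and kinases through which cells respond to them. They were chosen by symbol as 10 of the 60671 genes in a table of RNA-seq read counts: the interferon genes IFNB1, IFNL1, IFNL2 and IFNL3, the receptor chain genes IFNAR1, IFNAR2, IFNLR1 and IL10RB, and the kinase genes JAK1 and TYK2. The cells were HEK293, a long-established human line from embryonic kidney with epithelial morphology. The study asked how its genes respond to separate transcripts of LINC01016, a long non-coding RNA gene of the testis. There were 16 libraries in 8 groups of 2. In 6 groups, cells in 60 mm plates had received 5 µg of a pcDNA3.0 plasmid carrying the transcript named T1, T2, CU1, CU2, CU1ENC or CU1ENU, delivered with a Lipofectamine reagent, and RNA was taken at 48 hours. In the empty vector group the plasmid carried no transcript, and the last group was parental cells, for which the labels name no plasmid. The empty vector and isoform groups, called transfected below, thus shared plasmid and lipid, and the labels do not say whether parental cells were given the lipid alone. All groups come from 1 cell line, and the labels do not say that the replicates of a group were separate cultures, so the p-values speak only of spread among libraries, part of which may be technical.

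Interferon beta is a type I interferon. It is secreted by most nucleated cells when sensors of foreign nucleic acid such as RIG-I, MDA5 or cGAS switch on the factors IRF3 and NF-kB, and it binds a receptor made of the IFNAR1 and IFNAR2 chains. The lambdas are type III interferons, induced by much the same sensors, and their receptor pairs IFNLR1, found mainly on epithelial cells, with IL10RB, which is shared with the receptors of interleukin-10 and interleukin-22. In both receptors TYK2 and JAK1 sit on the inner tails and phosphorylate transcription factors that turn on the interferon-stimulated genes. The receptor chains and kinases are made without induction in most cells, whereas the interferon genes are silent until they are induced.

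Library totals ran from 15040770 to 17255935 counts, with a count for 25529 to 27461 genes. LINC01016 had 2617 to 12165 CPM (counts scaled to library size) in single isoform libraries, 0 and 1 counts in the empty vector libraries and 0 in both parental ones. All 11 HEK293 markers of kidney development and neurofilaments were counted, summing to 393 to 441 CPM in transfected libraries and 435 to 454 CPM in parental ones. Of 14 leukocyte and plasmacytoid dendritic cell markers, 10 stayed under 10 counts in every library, and MS4A1, LILRA4 and FCGR3A were at 0 throughout. That list summed to 5.18 to 7.84 CPM in transfected libraries and 2.44 to 3.08 CPM in parental libraries. CD14 passed the test as 1 of 3 tested (log2 fold change 1.23 ± 0.28 SE, edgeR adjusted p = 0.00431), where 15.4% of all genes were higher. All 3 were higher with the replicate block, against 23.1% of all genes. The part of this list in the results below was not tested. Same-numbered libraries of different groups deviated together, so values of a second fit that includes the replicate number (the block) are given where they change a call.

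The regions just upstream of the interferon genes are shown because the sensors named above act there through IRF and NF-kB, and because they show how alike IFNL2 and IFNL3 are. Each run is the 250 bases before a RefSeq transcription start, in GRCh38.p14, read 5′ to 3′ on the gene's strand, and RefSeq held such a window for 9 of the 10 genes. Capitals mark matches, on either strand, to the IRF half-site pair AANNGAAA or to the NF-kB letters GGGANNNNCC, and no other letters are capitals. IFNB1 lies on the minus strand (chr9:21077943-21078192), IFNL1 on the plus strand (chr19:39296157-39296406) and IFNL2 on the plus strand (chr19:39268146-39268395).
IFNB1: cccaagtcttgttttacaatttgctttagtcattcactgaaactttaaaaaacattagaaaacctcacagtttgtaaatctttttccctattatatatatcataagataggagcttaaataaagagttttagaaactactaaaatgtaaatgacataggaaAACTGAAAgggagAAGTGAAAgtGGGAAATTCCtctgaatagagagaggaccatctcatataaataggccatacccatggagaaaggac
IFNL1: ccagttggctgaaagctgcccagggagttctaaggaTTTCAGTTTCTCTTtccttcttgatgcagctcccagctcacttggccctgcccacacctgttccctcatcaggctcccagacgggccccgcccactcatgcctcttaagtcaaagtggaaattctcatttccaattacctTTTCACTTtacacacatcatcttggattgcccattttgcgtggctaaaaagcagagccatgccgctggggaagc
IFNL2: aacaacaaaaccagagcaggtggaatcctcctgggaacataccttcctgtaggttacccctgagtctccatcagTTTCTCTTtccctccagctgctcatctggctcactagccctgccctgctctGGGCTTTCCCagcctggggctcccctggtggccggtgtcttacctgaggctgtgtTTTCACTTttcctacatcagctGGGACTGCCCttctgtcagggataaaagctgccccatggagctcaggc

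In the IFNB1 window, IRF matches began 89 and 76 bases before the start and 1 NF-kB match began at 66 bases. The IFNL1 window held overlapping IRF matches at 214 and 208 bases and another at 74 bases, and its letters held no NF-kB match. The IFNL2 window held IRF matches at 176 and 70 bases and NF-kB matches at 125 and 48 bases. RefSeq held 2 starts for IFNL3, and the one farthest upstream was used. The IFNL3 window before that start (chr19:39245251-39245500, minus strand) was identical to the IFNL2 window at 249 of 250 bases, with all matches at the same distances. Of 35116 promoter windows of this length, 20.3% held the IRF letters and 22.6% the NF-kB letters, while 4.54% held the IRF letters more than once. No AP-1 letters (TGANTCA), which 6.57% of windows held, were found in the 4 windows. Only these letters were searched for AP-1, so other sites of that family were not looked for. A match is a description of letters and not a measured binding site.

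IFNB1 (ENSG00000171855) lies on chromosome 9 from 21077104 to 21077942 on the minus strand, in the GRCh38.p13 coordinates of the deposited table. IFNL1 (ENSG00000182393, 39296407 to 39298673, plus strand), IFNL2 (ENSG00000183709, 39268396 to 39270188, plus strand) and IFNL3 (ENSG00000197110, 39243553 to 39245129, minus strand) lie close together on chromosome 19. Values are over all annotated exons of each gene. The aligned stretches of the leading IFNL2 and IFNL3 transcripts were identical at 613 of 628 positions (97.6%), against 85.5% for IFNL1 with IFNL2. Reads that fit both IFNL2 and IFNL3 are not counted under the counter's default. The split between them is thus uncertain, and both counts may be too low by an unknown amount.

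Transcripts of all 4 interferon genes were counted in transfected cells and none in parental cells. IFNB1 had 2 to 29 counts in every one of the 14 transfected libraries. IFNL1 was counted in 13 of them, IFNL3 in 12 and IFNL2 in 11. The 278 counts of the 3 lambda genes made up 64.7% of the 430 counts of the 4 genes, without reads that fit both IFNL2 and IFNL3. Counts of 0 over both parental libraries allow up to 3 counts, so in parental cells the genes were not detectable rather than shown to be silent. All 4 entered the fit only through the transfected libraries in which they were counted, so the p-values against parental cells given below describe these libraries and support nothing beyond the counts.

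**Figure D1:**
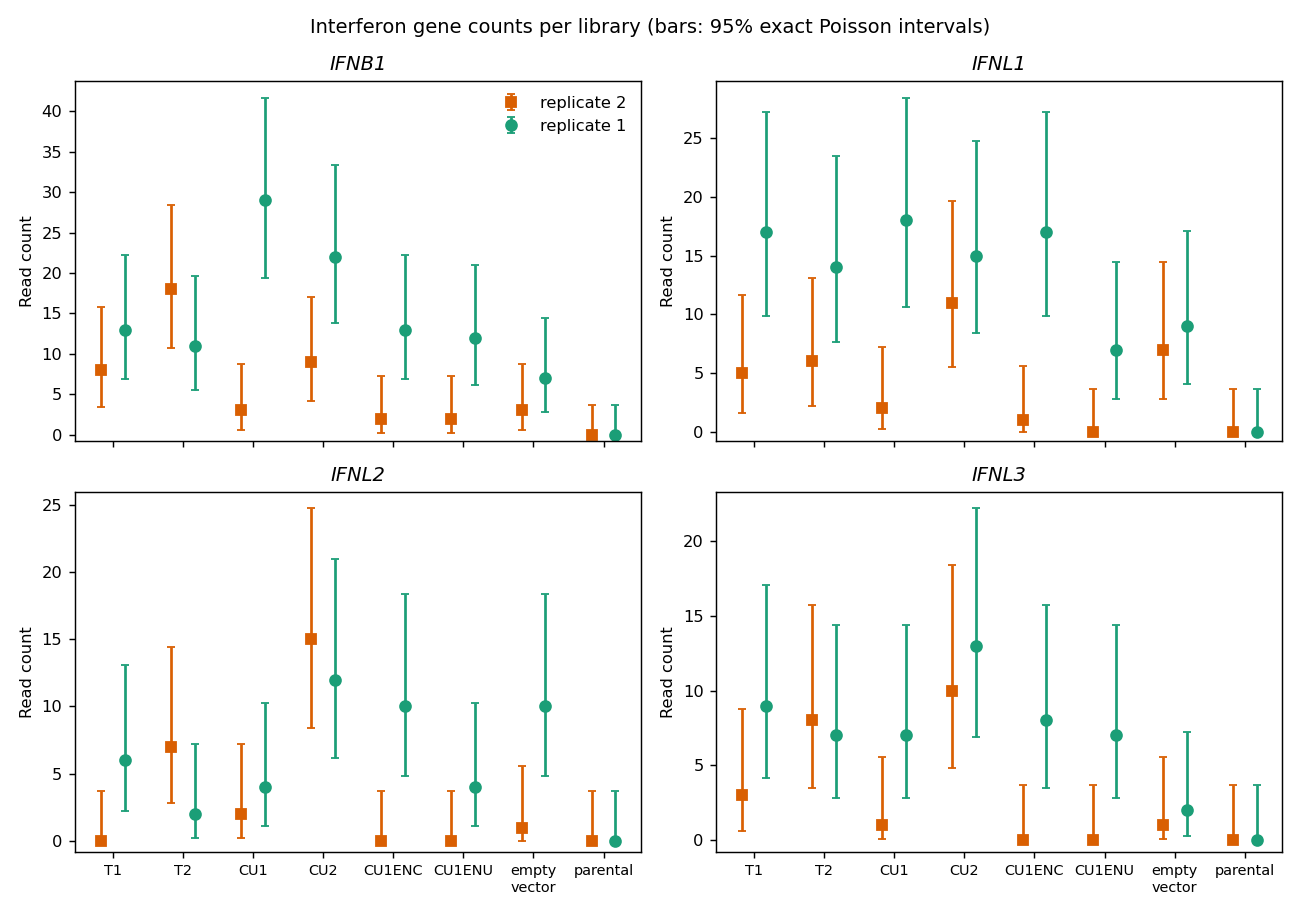
Read counts of IFNB1, IFNL1, IFNL2 and IFNL3 (vertical axis) in each library of the 8 groups (horizontal axis), with squares for replicate 2, circles for replicate 1 and bars for 95% exact Poisson intervals of counting error. Both parental libraries are at 0 in every panel, and replicate 2 is below replicate 1 in most transfected groups.

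IFNB1 had 13 and 8 counts in T1 (replicate 1, then replicate 2, here and below), 11 and 18 in T2, 29 and 3 in CU1, 22 and 9 in CU2, 13 and 2 in CU1ENC, 12 and 2 in CU1ENU and 7 and 3 in empty vector, against 0 and 0 in parental cells. Every transfected library was above both parental ones, and the highest count, 29, and a count of 3 came from the same group, CU1. Scaled to library size, the 152 counts of the 14 transfected libraries stood 7.57-fold above a floor of 3 counts over both parental libraries together, and at least 6.08-fold above the parental counts by the exact lower limit on counting error. For the mean of the 7 transfected groups against parental cells, edgeR's quasi-likelihood test gave adjusted p = 0.0269 for IFNB1, and the fit that blocked on replicate number gave 0.000543.

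IFNL1 had 17 and 5 counts in T1, 14 and 6 in T2, 18 and 2 in CU1, 15 and 11 in CU2, 17 and 1 in CU1ENC, 7 and 0 in CU1ENU and 9 and 7 in empty vector, against 0 and 0 in parental cells. The 1 transfected library at 0 was CU1ENU replicate 2, so that group alone touched the parental values. The 129 transfected counts stood 6.43-fold above the same parental floor, and at least 5.15-fold above the parental counts by the exact lower limit. The edgeR adjusted p against parental cells was 0.0491, and 0.000799 with the block, and the gene stayed past the threshold in 5 of 16 fits that each left out 1 library.

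IFNL2 had 6 and 0 counts in T1, 2 and 7 in T2, 4 and 2 in CU1, 12 and 15 in CU2, 10 and 0 in CU1ENC, 4 and 0 in CU1ENU and 10 and 1 in empty vector, against 0 and 0 in parental cells. IFNL3 had 9 and 3 counts in T1, 7 and 8 in T2, 7 and 1 in CU1, 13 and 10 in CU2, 8 and 0 in CU1ENC, 7 and 0 in CU1ENU and 2 and 1 in empty vector, against 0 and 0 in parental cells. CU2 held the most counts of both genes, and in CU1ENC and CU1ENU each was counted in replicate 1 and not in replicate 2. Against the parental floor the transfected counts stood 3.64-fold higher for IFNL2 and 3.79-fold for IFNL3, with exact lower limits of 2.88-fold and 3.005-fold. Neither passed edgeR's test (adjusted p = 0.124 for IFNL2 and 0.0733 for IFNL3), and both passed with the replicate block (0.0475 and 0.0106). With the counts of IFNL2 and IFNL3 added up, a check chosen after seeing the data, the adjusted p was 0.0764. Adding them up does not bring back reads that fit both genes.

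In the 4 genes together, replicate 2 libraries held 2 to 45 counts and replicate 1 libraries 28 to 62. T2 and CU2 stood apart among the replicate 2 libraries, with 39 and 45 counts against 2 to 16 in the other 5. Within the transfected groups, the 45 IFNB1 counts of replicate 2 were 0.438 times the 107 of replicate 1 (95% counting interval 0.302 to 0.626), a log2 fold change of -1.23 ± 0.39 SE in edgeR (adjusted p = 0.0133). The 32 IFNL1 counts of replicate 2 were 0.344 times the 97 of replicate 1 (0.223 to 0.517), a log2 fold change of -1.57 ± 0.40 (adjusted p = 0.00265). IFNL1 was lower in replicate 2 in all 7 groups and IFNB1 in 6 of 7, with T2 as the exception. The IFNB1 call was lost without either CU1 library, at an adjusted p of up to 0.0895.

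IFNL3 (edgeR adjusted p = 0.0528) and IFNL2 (0.211) did not pass between replicate numbers. Their counts were 23 in replicate 2 against 53 in replicate 1 for IFNL3, and 25 against 48 for IFNL2. Without either T2 library both passed, with adjusted p down to 0.0218 for IFNL3 and 0.0475 for IFNL2, and without either CU2 library IFNL3 passed. What a replicate number marks is not given in the labels, and of all 19103 genes tested 17.5% were higher and 17.6% lower in replicate 2.

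The interferon genes were counted in empty vector cells too. Empty vector libraries held 10 IFNB1, 16 IFNL1, 11 IFNL2 and 3 IFNL3 counts, against none in parental cells. These were 3.48-fold above the parental floor for IFNB1, 5.56-fold for IFNL1 and 3.83-fold for IFNL2, with exact lower limits of 2.34-fold, 4.02-fold and 2.62-fold, and IFNL3 was at the floor. None of the 4 passed edgeR's test (adjusted p from 0.119 for IFNL1 to 0.404 for IFNL3), although IFNB1 and IFNL1 had unadjusted p of 0.0494 and 0.0305. With the replicate block IFNB1 (adjusted p = 0.0247) and IFNL1 (0.00426) passed.

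No isoform passed the test against empty vector in any interferon gene. In IFNB1 the counts of both libraries were 32 in CU1, 31 in CU2, 29 in T2, 21 in T1, 15 in CU1ENC and 14 in CU1ENU, against 10 in empty vector. On counting error alone CU1 stood 3.19-fold above empty vector (95% interval 1.53 to 7.26), yet between libraries the fit gave a log2 fold change of 1.64 with an interval from -0.64 to 3.92. IFNL3 in CU2 had 23 counts against 3 in empty vector, 7.71-fold with a counting interval of 2.33 to 40.1. It had the smallest unadjusted p of these values in edgeR (0.0442), with an adjusted p of 1.00. IFNL3 reached 10 counts only in the CU2 libraries (13 and 10), and it passed the filter on low counts through them alone. Its p in CU2 thus supports nothing beyond the counts. The 6 comparisons share the 2 empty vector libraries.

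The receptor chain genes were counted in every library, and of the type I pair IFNAR1 fell in transfected cells while IFNAR2 missed the threshold. IFNAR1 (ENSG00000142166, chromosome 21, 33324429 to 33359864, plus strand), the chain that holds TYK2, had 66.2, 74.7 and 82.2 CPM as the lowest, median and highest of 14 transfected libraries, against 84.5 and 87.6 CPM in parental libraries. All 14 lay below both parental values. It fell by 14.2% (log2 fold change -0.22 ± 0.07 SE, edgeR adjusted p = 0.0259; 0.00120 with the block). In bulk RNA, fewer cells that express a gene and less of its RNA per cell cannot be told apart.

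IFNAR2 (ENSG00000159110, chromosome 21, 33229901 to 33265675, plus strand), the chain that holds JAK1 and binds the interferon most tightly, had 9.93, 12.2 and 13.6 CPM as the lowest, median and highest of the transfected libraries, against 14.21 and 14.99 CPM in parental libraries. Again all 14 lay below both parental values. Its log2 fold change of -0.29 ± 0.11 SE missed the threshold in edgeR (adjusted p = 0.0533) and passed with the block (0.0196). It shares 2038 of its 4614 exonic bases (44.2%) with the read-through gene IFNAR2-IL10RB on the same strand, and 1803 bases (39.1%) with IL10RB-DT on the opposite strand.

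Of the chains for interferon lambda, IFNLR1 (ENSG00000185436, chromosome 1, 24154168 to 24187959, minus strand) was higher in transfected cells. It had 23.4, 25.1 and 27.8 CPM as the lowest, median and highest of the transfected libraries, against 21.9 and 19.7 CPM in parental replicates 1 and 2. All 14 lay above both parental values, and it rose by 20.8% (log2 fold change 0.27 ± 0.08 SE, edgeR adjusted p = 0.0215; 0.00397 with the block). The calls of IFNLR1 and IFNAR1 were lost when no filter on low counts was used (adjusted p = 0.145 and 0.0760).

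IL10RB (ENSG00000243646, chromosome 21, 33266367 to 33310187, plus strand) had 2 to 16 counts in transfected libraries, against 16 and 11 in parental ones. The groups overlapped, and its log2 fold change of -0.38 had an interval from -1.37 to 0.61 (edgeR adjusted p = 0.582). The interval does not separate a fall from no difference. Of its 4526 exonic bases, 1732 (38.3%) also belong to IFNAR2-IL10RB (ENSG00000249624), which itself had 0 counts in 10 libraries and 1 in the other 6. Reads in exons shared by 2 genes on a strand are not counted under the counter's default, so the IL10RB and IFNAR2 levels may be too low by an unknown amount.

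**Figure D2:**
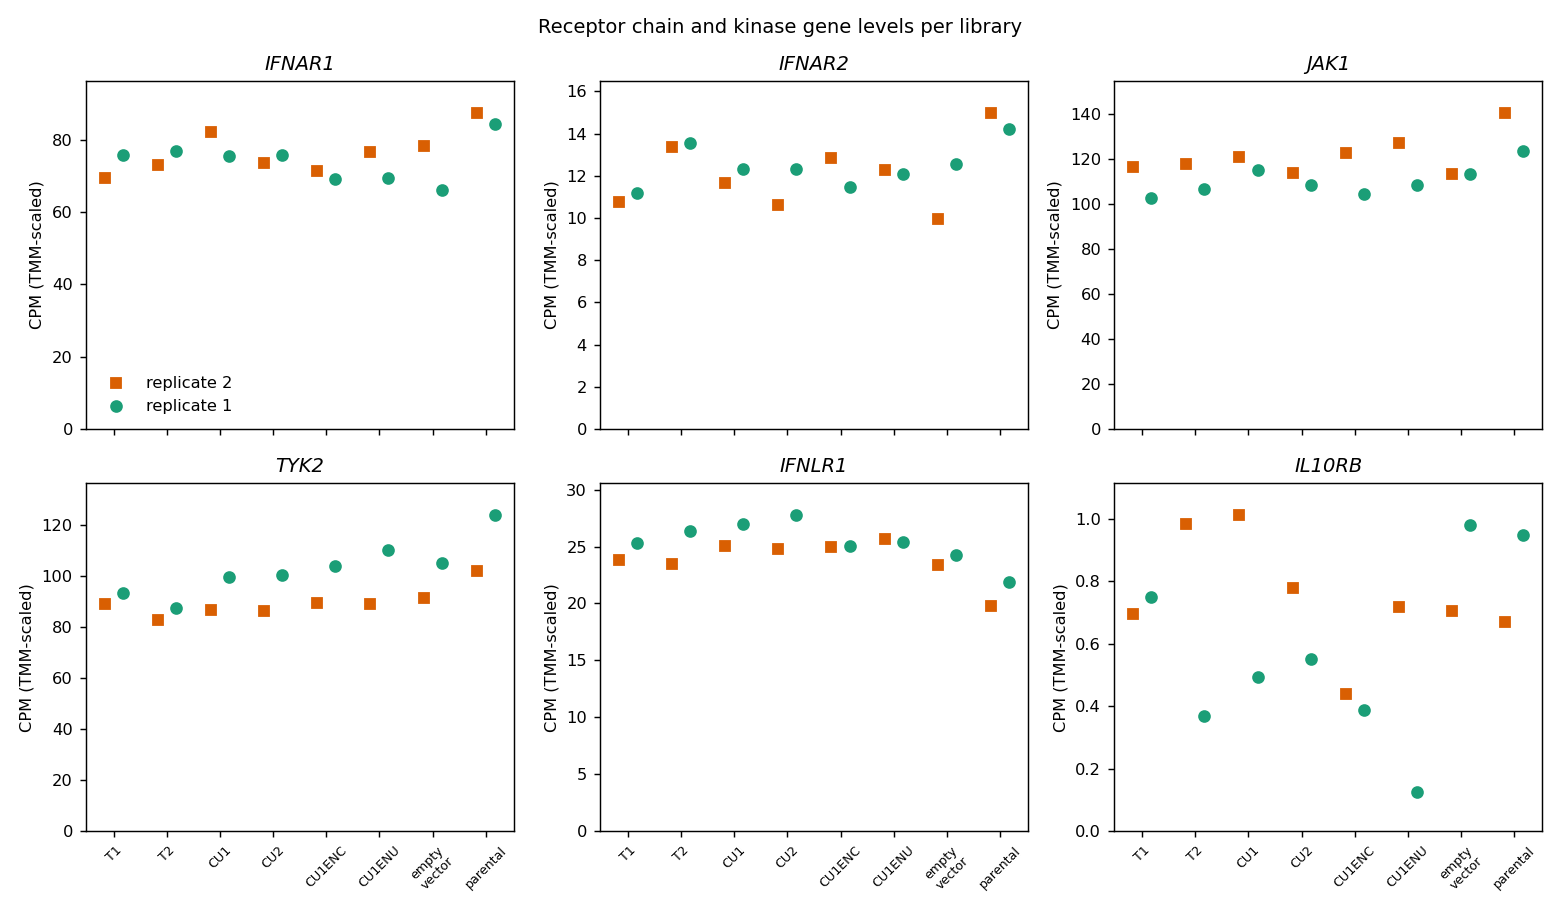
TMM-scaled CPM (vertical axis, from 0) of 4 receptor chain genes and 2 kinase genes in each library of the 8 groups (horizontal axis), with squares for replicate 2 and circles for replicate 1. IFNAR1 and IFNAR2 lie below, and IFNLR1 above, both parental libraries in all 14 transfected libraries, while IL10RB overlaps.

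Neither kinase gene passed in the fit without the block, and both passed with it. JAK1 (ENSG00000162434, chromosome 1, 64833229 to 65067754, minus strand), which serves both interferon receptors and many others, had 103, 114 and 127 CPM as the lowest, median and highest of the transfected libraries, against 124 and 141 CPM in parental libraries. Of the 14, 13 lay below both parental values, and CU1ENU replicate 2 lay between them. Its log2 fold change was -0.22 ± 0.08 SE (edgeR adjusted p = 0.0522; 0.000272 with the block).

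TYK2 (ENSG00000105397, chromosome 19, 10350529 to 10380572, minus strand), the partner kinase, had 82.7, 90.5 and 110 CPM as the lowest, median and highest of the transfected libraries, against 124 and 102 CPM in parental replicates 1 and 2. There 11 of 14 lay below both parental values. Its log2 fold change was -0.27 ± 0.10 SE (edgeR adjusted p = 0.0500046, just above 0.05; 2.53e-05 with the block).

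The kinases moved in opposite directions between replicate numbers. JAK1 was higher in replicate 2, at 113 to 127 CPM against 103 to 115 CPM in replicate 1 (log2 fold change 0.13 ± 0.03 SE, edgeR adjusted p = 0.00314). TYK2 was lower in replicate 2, at 82.7 to 91.5 CPM against 87.7 to 110 CPM in replicate 1 (-0.19 ± 0.03, adjusted p = 4.50e-05). The same orders held between the parental libraries, where replicate 2 had 141 CPM of JAK1 against 124 CPM in replicate 1, and 102 CPM of TYK2 against 124 CPM. None of the 4 receptor chains passed (adjusted p from 0.200 for IL10RB to 0.483 for IFNAR1).

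In empty vector against parental cells no receptor chain or kinase passed without the block. The log2 fold changes were -0.25 ± 0.09 SE for IFNAR1, -0.38 ± 0.15 for IFNAR2, -0.22 ± 0.11 for JAK1 and -0.20 ± 0.13 for TYK2, with 0.19 ± 0.11 for IFNLR1. With the block, edgeR called IFNAR1 (adjusted p = 0.00739), IFNAR2 (0.0372), JAK1 (0.00673) and TYK2 (0.0164) lower, and IFNLR1 did not pass (0.138). This comparison and that of all transfected groups share the parental libraries.

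**Figure D3:**
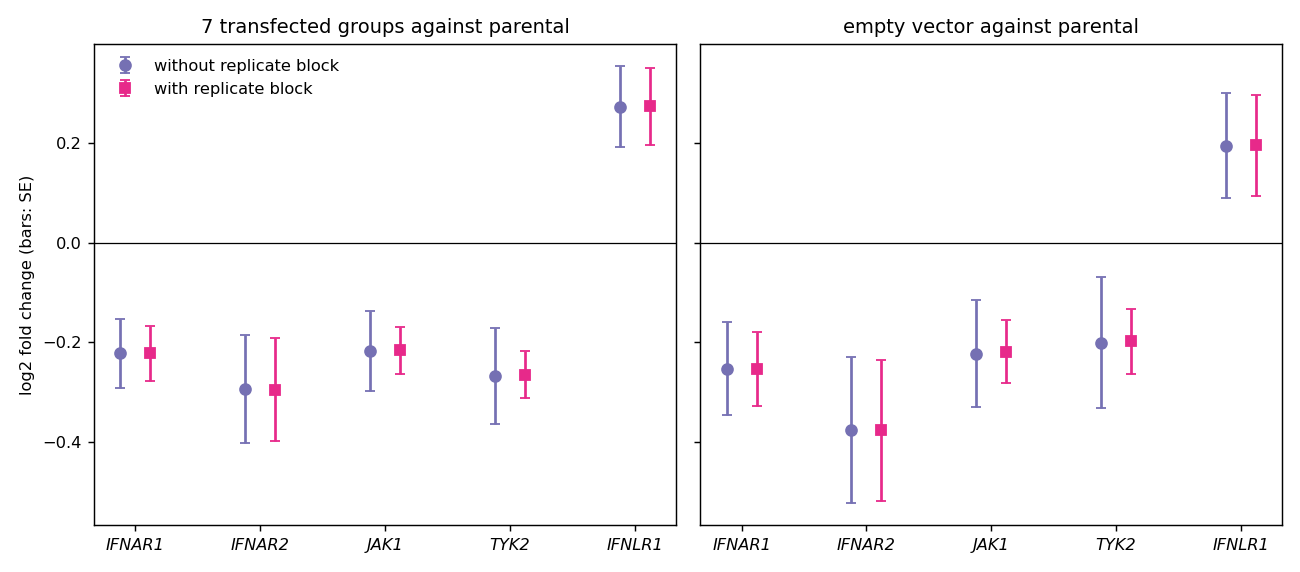
Log2 fold changes with SE bars (vertical axis) of IFNAR1, IFNAR2, JAK1, TYK2 and IFNLR1 (horizontal axis) for the mean of 7 transfected groups against parental cells (left) and empty vector against parental cells (right), without (circles) and with (squares) the replicate block. The block left the values nearly where they were and shortened the bars, most for JAK1 and TYK2.

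Over all 10 genes, 3 were called higher (IFNB1, IFNL1 and IFNLR1) and 1 lower (IFNAR1) in transfected against parental cells, where 15.4% of all 19316 tested genes were higher and 14.3% lower. With the block 5 were higher and 4 lower, against backgrounds of 23.1% and 22.5%. The interferon genes passed the filter on low counts only through transfected libraries, so the counts of calls are a description. In empty vector against parental cells edgeR called 0 of the 10, where it called 9.41% of genes higher and 6.6% lower. DESeq2 also called 0, but it gave no adjusted p for 5 of the 10, the interferon genes and IL10RB. In edgeR 4 of the 10 had an unadjusted p under 0.05, as had 5861 of the 19316 genes tested. With the block 2 were higher and 4 lower (background 18.4% and 15.9%). Between replicate numbers 1 was higher and 3 lower in replicate 2, where 17.5% of all 19103 genes tested were higher and 17.6% lower.

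In transfected against parental cells, leaving out 1 library moved the count to between 0 and 7. Without parental replicate 1 none of the 10 genes passed, and without parental replicate 2 only TYK2 did. Without CU1ENU replicate 2, 7 passed, with IFNL3, JAK1 and TYK2 added.

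None of the 60 values of an isoform against empty vector was called by edgeR or under any alternative. Over all genes tested such calls made up 0.0104% of genes higher in T1, T2, CU1, CU1ENC and CU1ENU, 0.00518% in CU2 and 0% lower in each. For the receptors and kinases the intervals were narrow for the well-counted genes. The log2 fold changes of IFNAR1 ran from -0.04 in CU1ENC to 0.13 in CU1, where the interval was -0.07 to 0.33. Those of JAK1 ran from -0.05 in T1 to 0.06 in CU1, where the interval was -0.17 to 0.29.

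IFNLR1 ran from 0.04 in T1 to 0.14 in CU2 on the log2 scale, with an interval of -0.08 to 0.37 in CU2. TYK2 ran from -0.21 in T2, with an interval of -0.49 to 0.07, to 0.02 in CU1ENU. IFNAR2 ran from -0.04 in T1 to 0.26 in T2, with an interval of -0.06 to 0.58 in T2. An F-test of any difference among the 6 isoforms called 0 of the 10 genes (unadjusted p from 0.373 for IFNL2 to 0.923 for IFNLR1) and 0% of all genes, with 98 of 19316 at an unadjusted p under 0.05.

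Per exon length, the 2 kinases and IFNAR1 were the most abundant of the 10 and the interferon genes stood below each of the others but IL10RB. In CPM per kilobase of exon, the transfected means were 14.1 ± 1.26 for TYK2, 10.7 ± 0.63 for IFNAR1, 9.01 ± 0.56 for JAK1, 5.09 ± 0.26 for IFNLR1 and 2.58 ± 0.23 for IFNAR2 (SD, n = 14). The interferon genes followed at 0.809 ± 0.586 for IFNB1, 0.740 ± 0.490 for IFNL1, 0.440 ± 0.338 for IFNL3 and 0.344 ± 0.328 for IFNL2, and IL10RB was last at 0.142 ± 0.058. The IFNL3 and IFNL2 values leave out reads that fit both genes, so their place in this order is uncertain. The places of IFNAR2 and IL10RB are uncertain too. Of their exonic bases, 44.2% and 38.3% are shared with IFNAR2-IL10RB on the same strand. Reads there are not counted, yet the bases are part of the length, so both values may be too low. Of the neighbours in that order, IFNAR1 and JAK1 overlapped between libraries, as did the interferon genes and IL10RB. The same order of receptors and kinases was seen in parental cells, at 16.9, 12.5, 10.5, 4.22 and 3.16 CPM per kilobase and 0.179 for IL10RB. As counted there was no overlap there (n = 2), with the same limit for IFNAR2 and IL10RB.

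**Figure D4:**
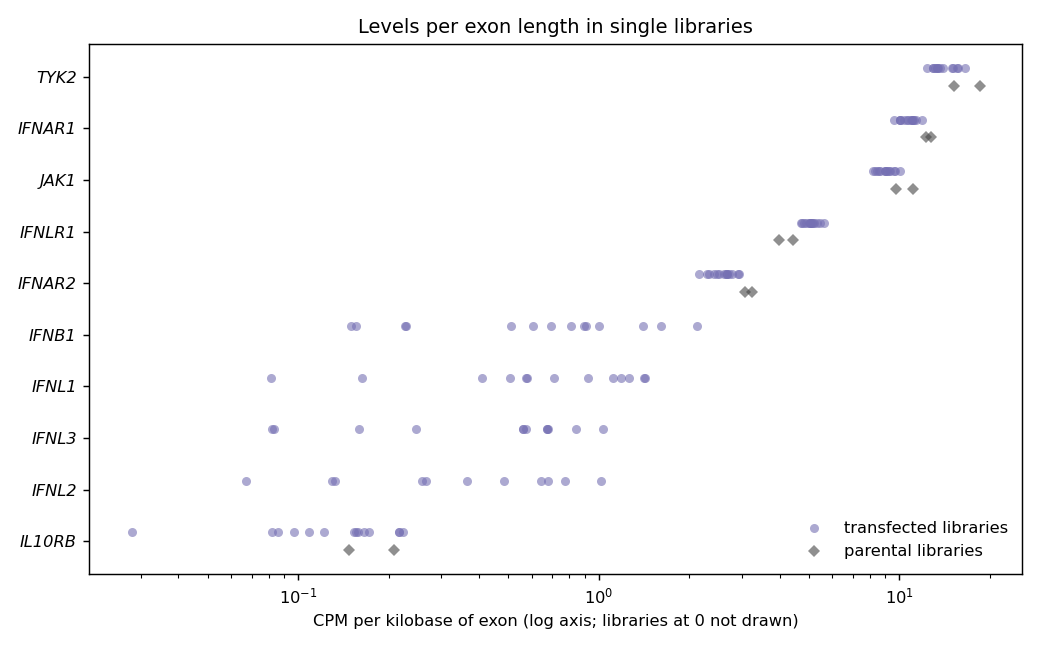
CPM per kilobase of exon (horizontal log axis) of the 10 genes (rows) in single libraries, with circles for the 14 transfected and diamonds for the 2 parental libraries; libraries at 0 are not drawn. IFNB1 and the lambdas have no parental point, and IL10RB lies among the interferon genes. Values of IL10RB and IFNAR2 leave out reads in exons shared with IFNAR2-IL10RB and may be too low.

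Other interferon genes were close to uncounted. Of 18 (13 for interferon alpha, with IFNW1, IFNE, IFNK, IFNL4 and IFNG), 6 had no count in any library and none passed the filter. IFNE, an interferon of epithelia, reached the highest value, 7 counts in a library, with 25 counts in the transfected and 8 in the 2 parental libraries. The list summed to 0 to 0.552 CPM in transfected libraries and 0.0609 to 0.474 CPM in parental ones.

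Of 30 tested genes of the induction pathway that lies upstream of IFNB1, 10 rose and 2 fell in transfected against parental cells (median log2 fold change 0.31, against -0.0038 over all genes). Over all genes 15.4% rose and 14.3% fell. With the block 14 of the list rose and 2 fell, against 23.1% and 22.5% of all genes. JUN, a subunit of AP-1, rose to 698 ± 67.5 CPM, against 304 ± 17.7 CPM in parental cells (SD, n = 14 and 2; log2 fold change 1.20 ± 0.10 SE). The NF-kB subunit genes NFKB1 (0.76 ± 0.09) and RELA (0.50 ± 0.08) rose too. CGAS, the sensor of cytosolic DNA, rose by 2.51 ± 0.37 on the log2 scale (edgeR adjusted p = 0.000222), to 2.83 ± 0.656 CPM against 0.484 ± 0.350 CPM in parental cells. STING1, the adaptor that acts after it, fell by 0.54 ± 0.11, and MAVS, the adaptor of RIG-I and MDA5, by 0.44 ± 0.06.

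Of 20 transcription factors and brakes that act after the receptors, 5 rose and 2 fell (median 0.30), against 15.4% and 14.3% of all genes. With the block 10 rose and 3 fell, against 23.1% and 22.5%. SOCS3, an inhibitor of Janus kinase signalling, rose by 1.90 ± 0.12 on the log2 scale (edgeR adjusted p = 3.79e-07), to 33.0 ± 2.91 CPM against 8.78 ± 1.82 CPM in parental cells. STAT3 rose by 0.21 ± 0.07. PRKD2 (0.51 ± 0.08) and HGS (0.49 ± 0.09), which act in the turnover of receptors, rose, and PIAS1, a SUMO ligase that restrains cytokine signalling, fell by 0.27 ± 0.06.

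The 47 interferon-stimulated genes, the usual readout of both receptors, all had a positive log2 fold change in transfected against parental cells (median 2.56). None passed without the block, where 15.4% of all genes were called higher, while 35 passed with it, where 23.1% were. Summed over the list, transfected libraries held 1043 to 8234 CPM and parental ones 888.8 and 974.9 CPM. ISG15, a ubiquitin-like protein and the member of lowest p, averaged 181 ± 119 CPM against 9.97 ± 0.46 CPM in parental cells (SD, n = 14 and 2; log2 fold change 4.15 ± 1.48 SE, edgeR adjusted p = 0.0688). The block fits the same shift between replicate numbers in all groups. ISG15 was lower in replicate 2 of each transfected group, but had 9.65 and 10.3 CPM in parental replicates 1 and 2. The block thus does not describe ISG15 well, and the calls of this list with the block are to be read with that limit. In empty vector all 47 were again positive (median 2.11), with 0 calls and 4 with the block. Over all genes 9.41% were called higher there, and 18.4% with the block. Against empty vector, 43 to 46 of the 47 were positive in each isoform, with medians from 0.15 in CU1ENU to 1.03 in CU2 and 0 calls.

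Between replicate numbers all 47 stimulated genes had a negative log2 fold change for replicate 2 (median -1.82, against -0.018 over all genes), the same direction as IFNB1 and IFNL1. Of them 46 passed, where 17.6% of all genes were called lower. ISG15 had 39.4 to 166 CPM in replicate 2 of the transfected groups and 180 to 376 CPM in replicate 1. T2 (149 CPM) and CU2 (166 CPM) were the highest replicate 2 libraries, as they were for the counts of the 4 interferon genes.

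Within a replicate number, relations between IFNB1 and other genes over the 7 transfected libraries did not pass. On log2 CPM, IFNB1 and ISG15 had Pearson r of 0.73 in replicate 2 (rho 0.71; exact permutation p = 0.0480 and 0.0881) and 0.59 in replicate 1 (rho 0.46; exact p = 0.164 and 0.302). After Benjamini-Hochberg adjustment over the 6 relations computed, p for r was 0.246 in both. Without the 2 libraries farthest from the median of IFNB1, r was -0.11 in replicate 2, so that relation rests on them, and 0.78 in replicate 1. IFNB1 with IFNL1 gave r of 0.70 in replicate 2 and 0.58 in replicate 1 (rho 0.79 and 0.64; adjusted exact permutation p = 0.246 for both r). For LINC01016 the CPM were taken without the log. IFNB1 on log2 CPM with LINC01016 gave r of -0.24 in replicate 2 and 0.47 in replicate 1 (rho -0.64 and 0.50, adjusted exact permutation p = 0.598 and 0.347). Leaving out the 2 libraries farthest from the median of IFNB1 gave r of -0.09 in replicate 2 and 0.81 in replicate 1.

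**Figure D5:**
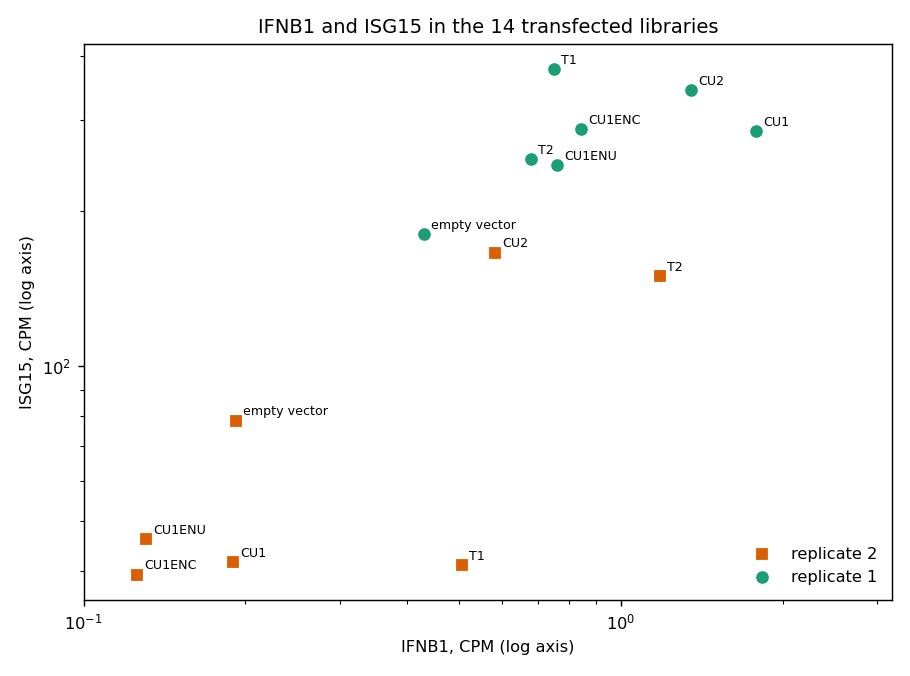
CPM of ISG15 (vertical log axis) against CPM of IFNB1 (horizontal log axis) in the 14 transfected libraries, with squares for replicate 2 and circles for replicate 1. Replicate 1 libraries lie at 180 CPM of ISG15 or above, and all replicate 2 libraries lie at or below 166 CPM.

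The genes whose level was most like that of IFNB1 over all 16 libraries, by Pearson correlation of log2 CPM, were TRIM14 (r = 0.93), OGFR (0.92), DNPEP (0.92), PNPT1 (0.92) and TDRD7 (0.91). For IFNL1 they were BATF2 (0.96), TBILA (0.94), CMTR1 (0.94), HELZ2 (0.92) and TRIM14 (0.92). These are descriptions, since the libraries share the parental against transfected split and the replicate split. Within the 14 transfected libraries r was 0.86 for TRIM14 with IFNB1 and 0.94 for BATF2 with IFNL1. BATF2 had 0.457, 2.93 and 6.56 CPM as the lowest, median and highest of the transfected libraries, against 0.296 and 0.427 CPM in parental libraries.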

How the data were processed

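Read counts per gene, whole numbers with no normalization, are as the authors deposited them. Per the file headers they were made with featureCounts 2.0.1 over exons of the Ensembl release 101 annotation, with strand option 2 and without the options that would count reads overlapping more than 1 gene or fitting several places. Per the submitters' processing notes, HISAT2, DESeq2 and the build GRCh38.p13 were used, and the sources used here give no settings. Groups and replicate numbers come from the sample titles, and every count column matched 1 sample.

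The 10 genes and all gene lists were chosen with earlier results of these data known. All 10 passed filterByExpr (minimum count 10, minimum total 15), which kept 19316 genes, so a planned permutation test for genes under the filter was not needed. edgeR 4.0.16 in R 4.3.3 (limma 3.58.1) fitted 8 group means to 16 libraries with TMM factors (0.974 to 1.03) and robust quasi-likelihood F-tests, leaving 8 residual degrees of freedom. The Benjamini-Hochberg threshold was 0.05 over all tested genes. The SE follows from the fold change and F (log2 fold change over root F). Replicate 2 was set against replicate 1 within the 14 transfected libraries, with group as a covariate (19103 genes). CPM are TMM-scaled, and log2 CPM used a prior count of 2. The scripts were tested on simulated data.

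After group means were removed, same-numbered libraries deviated together in 28 of 28 pairs of groups (r 0.162 to 0.442), so the numbers were taken to pair the libraries, on the data and not on a label. The block, which fits the same shift between replicate numbers in all groups, left 7 residual degrees of freedom. It lowered the common dispersion to 0.00436 from 0.0184. Replicates of a group differed by 4.67 to 11.9 times sampling noise (chi-square per degree of freedom), so none was taken as a duplicate. Intervals (95%) and the floor of 3 counts cover counting error only.

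Named genes were the 10 members, up to 4 called genes of lowest p in each list (or the 3 of lowest p), and the 5 genes most like IFNB1 and IFNL1. IFNE, RELA, STING1 and STAT3 fall outside this rule and were chosen after their values were seen. Alternatives were other size factors, DESeq2 1.42.0, no filter, no robust shrinkage, the replicate block and leaving out each library.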

Additional observations from a re-analysis of the deposited data

How the results depend on the processing

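Of the 10 genes, 4 were called in transfected against parental cells, and 5 with other size factors, without the filter, without robust shrinkage or in DESeq2, while the replicate block called 9. DESeq2 gave no adjusted p there for IFNL2 and IFNL3. Leaving out 1 library gave 0 to 7. For empty vector against parental cells the count was 0, with 3 called without the filter (IFNB1, IFNL1 and IFNL2) and 6 with the block. There too DESeq2 gave no adjusted p for the interferon genes and IL10RB. Between replicate numbers 4 were called, where 17.5% of all genes were higher and 17.6% lower in replicate 2, and 3 to 6 when 1 library was left out. DESeq2 called 2 (JAK1 and TYK2) and gave no adjusted p for the interferon genes and IL10RB. The only gene to change sign against parental cells was IL10RB. In empty vector it ran from -0.20 to 0.31 on the log2 scale with 1 library left out, and over all transfected groups it was 0.12 from replicate 2 libraries alone, against -0.85 from replicate 1 alone. The cause was not tested. The block changed no call of an isoform against empty vector. Of 1260 such values under alternatives, 50 had another sign and none was called. No relation with IFNB1 passed on CPM without the log. A library held at most 29 counts of an interferon gene. Counting intervals of some ratios to empty vector, such as IFNB1 in CU1, lay above 1 while the fit over libraries called none, and the cause was not tested.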

Other observations

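Among 8 tested relatives of these receptors and kinases (10 other class II cytokine receptor and Janus kinase genes in all), 2 rose and 1 fell in transfected against parental cells, where 15.4% and 14.3% of all genes did. F3, tissue factor, which starts blood clotting and shares the fold of these receptors, rose by 0.92 ± 0.15 SE on the log2 scale, to 14.09 ± 1.121 CPM against 7.47 ± 1.94 CPM in parental cells (SD, n = 14 and 2; edgeR adjusted p = 0.000410). IFNGR1, the ligand-binding chain of the interferon gamma receptor, rose by 0.36 ± 0.08, to 75.1 ± 4.24 CPM against 58.4 ± 0.09 CPM in parental cells (edgeR adjusted p = 0.00345). IL20RA, a chain of receptors for interleukin-20 and its relatives, fell by 0.64 ± 0.19, to 5.66 ± 1.03 CPM against 8.79 ± 0.71 CPM in parental cells (edgeR adjusted p = 0.0196). The same 3 genes were called in empty vector against parental cells.

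Of 6 tested fibroblast markers, 3 fell and none rose in transfected cells, where 14.3% of all genes fell and 15.4% rose. With the replicate block 3 were lower and 2 higher, against 22.5% and 23.1% of all genes. COL3A1, a fibrillar collagen chain, had a log2 fold change of -2.19 ± 0.43 SE (edgeR adjusted p = 0.00305), LUM of -1.02 ± 0.22 and PDGFRA of -1.16 ± 0.35. The members with a positive value were FAP, with 76 counts in transfected and 0 in parental libraries, and COL1A1, at 0.22. The 9 markers summed to 45.6 to 58.4 CPM in transfected libraries and 60.0 to 61.8 CPM in parental ones. Of the 11 HEK293 markers, INA (0.28 ± 0.07) and GATA3 (0.46 ± 0.16) rose and NEFL (-0.34 ± 0.09) fell, and with the block 3 were higher and 2 lower, against 23.1% and 22.5% of all genes. IRF9, a transcription factor of the interferon response, had a log2 fold change of -1.77 ± 0.16 between replicate 2 and replicate 1 of the transfected groups (edgeR adjusted p = 9.20e-09).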
